A study of Gallus gallus with 2 samples.

Results

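The peaks described here are the FOXO1 peaks that the authors' caller placed on chicken chromosome 4. They were chosen by chromosome alone, as every listed peak with chromosome name 4, which gave 230 of 3317 peaks (6.93%). They were split by peak start at 20000000 bp into 89 peaks below and 141 peaks beyond. Primary myoblasts from thigh muscle of 11-day chicken embryos were grown in 20% fetal bovine serum and moved to 2% horse serum to differentiate. Chromatin precipitated with an antibody to FOXO1 gave 1 ChIP library (2207278 tags), and chromatin from the same cell type with no antibody gave 1 input library. No genetic change or further agent is named for either library. With 1 library on each side nothing below has a replicate check. The tests compare stretches of 1 peak list. Intervals on tag counts and folds cover counting error only, while those of medians, shares and densities take peaks as independent.

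FOXO1 is a forkhead transcription factor that insulin and growth factor signalling keeps out of the nucleus through Akt. In muscle it is known for switching on genes of protein breakdown and for acting in myoblast differentiation. Bird genomes consist of a few long chromosomes and many microchromosomes, which are gene-rich and GC-rich. The short arm of chicken chromosome 4 corresponds to a chromosome that stays separate in many other birds and was joined to the ancestral chromosome 4 in the chicken lineage. The 20000000 bp boundary stands for the end of that arm. No genome of the build behind the coordinates was at hand, so genes, motifs and base composition at the peaks were not analysed here, and positions are printed as the authors list them.

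The side of the former microchromosome was the denser side. It carried 4.45 peaks per Mb (Poisson 95% interval 3.57 to 5.48), against 2.01 per Mb (1.69 to 2.37) on the rest of chromosome 4. The ratio was 2.22 (95% interval 1.53 to 3.20; quasi-Poisson fit of 1 Mb windows, n = 91 windows, F test, Benjamini-Hochberg adjusted p = 0.000298 over 7 comparisons). The arm was also denser than the long autosomes 1, 2, 3 and 5, which carried 2.50 per Mb (2.36 to 2.64), by a ratio of 1.78 (1.32 to 2.41; quasi-Poisson fit, n = 535 windows, adjusted p = 0.00143). It did not reach the mean of the microchromosomes 11 to 28, which was 7.03 per Mb (6.64 to 7.44). Against them its ratio was 0.633 (0.425 to 0.942; quasi-Poisson fit, n = 201 windows, adjusted p = 0.0227), but that call was lost against chromosomes 11 to 20 alone (0.721) and with the boundary at 18 Mb (0.679). Both higher ratios missed the threshold without the first 3 Mb of every chromosome, at 1.49 and 1.23. Without the first 2 Mb, the planned setting, the ratio to the rest of chromosome 4 passed it, at 1.63. The ratio to the long autosomes, at 1.34, did not.

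Peaks of the arm were concentrated at its outer end. The first 3 windows of 1 Mb held 16, 14 and 8 peaks, together 38 of the 89 (42.7%) in 3 of the 20 Mb. No other window of chromosome 4 held more than 7. The next windows of the arm held 4, 3, 5, 1 and 0 peaks. In steps of 5 Mb from the chromosome start, the arm had 9.0 peaks per Mb (6.56 to 12.04), 2.2 (1.10 to 3.94), 4.0 (2.44 to 6.18) and 2.6 (1.38 to 4.45). Only the first of these densities was above the mean of chromosomes 11 to 28. From 3 to 20 Mb the arm held 51 peaks at 3.0 per Mb, and its interval of 2.23 to 3.94 held the 2.57 per Mb (2.21 to 2.98) of the long autosomes over the same distance.

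**Figure D1:**
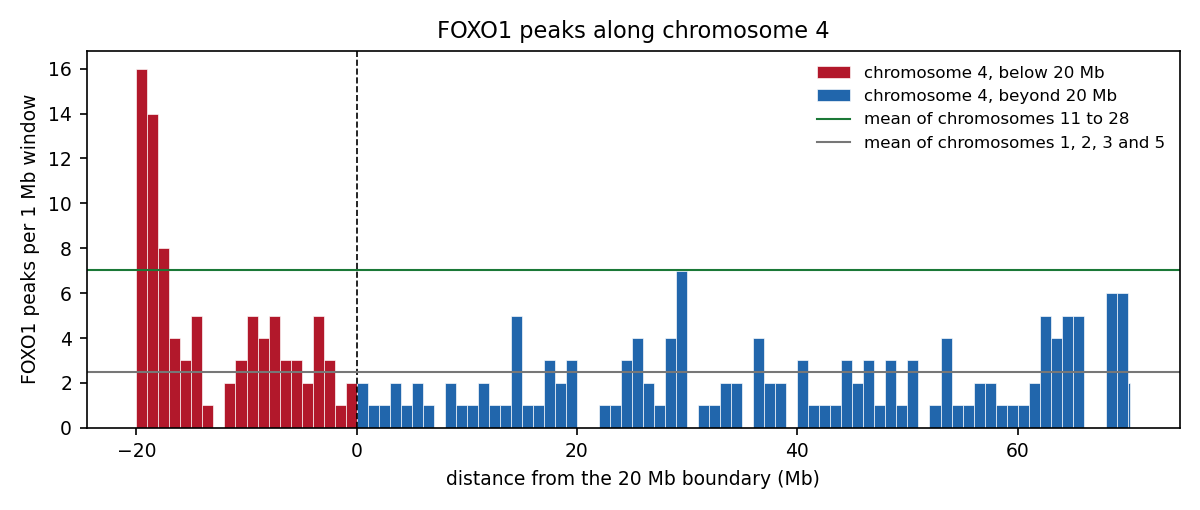
FOXO1 peaks in each 1 Mb window of chromosome 4 (bars; the last window is shorter) against the distance of the window from the 20 Mb boundary, with the mean densities of chromosomes 11 to 28 and of chromosomes 1, 2, 3 and 5 as lines. The 3 outermost windows of the arm hold 16, 14 and 8 peaks, and no other window exceeds 7.

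When the first 3 Mb of every chromosome was left out, a setting chosen after the windows had been seen, the arm was 1.49 times as dense as the rest of chromosome 4 (1.03 to 2.16; quasi-Poisson fit, n = 88 windows, adjusted p = 0.0673). Against the long autosomes the ratio was then 1.23 (0.847 to 1.79; quasi-Poisson fit, n = 520 windows, adjusted p = 0.291). Both calls were lost. The ratio to chromosomes 11 to 28 was 0.45 (0.269 to 0.754; quasi-Poisson fit, n = 146 windows, adjusted p = 0.00258). Only starts were left out, so the reference chromosomes and the rest of chromosome 4 kept their far ends. The arm then held no chromosome end. The planned setting left out the first 2 Mb of every chromosome. There the arm stayed denser than the rest of chromosome 4, by 1.63 (1.14 to 2.33; quasi-Poisson fit, n = 89 windows, adjusted p = 0.0230). The call against the long autosomes was lost at that setting too, with a ratio of 1.34 (0.943 to 1.90).

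A dense start was not seen to this extent on the other long chromosomes. The first 3 Mb of chromosome 4 had 12.7 peaks per Mb (8.96 to 17.4). The first 3 Mb of chromosomes 1, 2, 3 and 5 had 6.0, 5.67, 3.33 and 5.0, with 60 peaks over the 4 starts and a joint density of 5.0 (3.82 to 6.44). The starts of chromosomes 11 to 28, where they were longer than 3 Mb, had 7.48 per Mb (6.73 to 8.29). These starts were compared after their values were seen and without a test, and their Poisson intervals leave clustering of peaks out. At the opposite end of chromosome 4 the last 3 Mb held 14 peaks, 4.67 per Mb (2.55 to 7.83). The last 3 Mb of the other long chromosomes are not given here, so the comparison covers starts and not all ends. Over the last 20 Mb, the ratio to the density before it was 1.00 on chromosome 4. On chromosomes 1, 2, 3 and 5 it was 1.26, 0.653, 1.17 and 0.876.

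Over 20 Mb the same contrast was tested. The first 20 Mb of chromosome 4 was 2.22 times as dense as what lay beyond. On chromosomes 1, 2, 3 and 5 the corresponding ratios were 1.01 (exact 95% interval 0.742 to 1.35), 1.60 (1.2 to 2.11), 1.29 (0.943 to 1.74) and 0.837 (0.611 to 1.13). The ratio of chromosome 4 was 1.93 times that of the other 4 chromosomes (1.28 to 2.92; quasi-Poisson interaction term, n = 606 windows, adjusted p = 0.00376). Without the first 3 Mb of each chromosome it was 1.50 times (0.941 to 2.38; quasi-Poisson fit, n = 591 windows, adjusted p = 0.111), so this call too was lost without the outermost windows. It was also lost at the planned 2 Mb, at 1.58 times (1.01 to 2.47; quasi-Poisson fit, n = 596 windows, adjusted p = 0.0711).

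**Figure D2:**
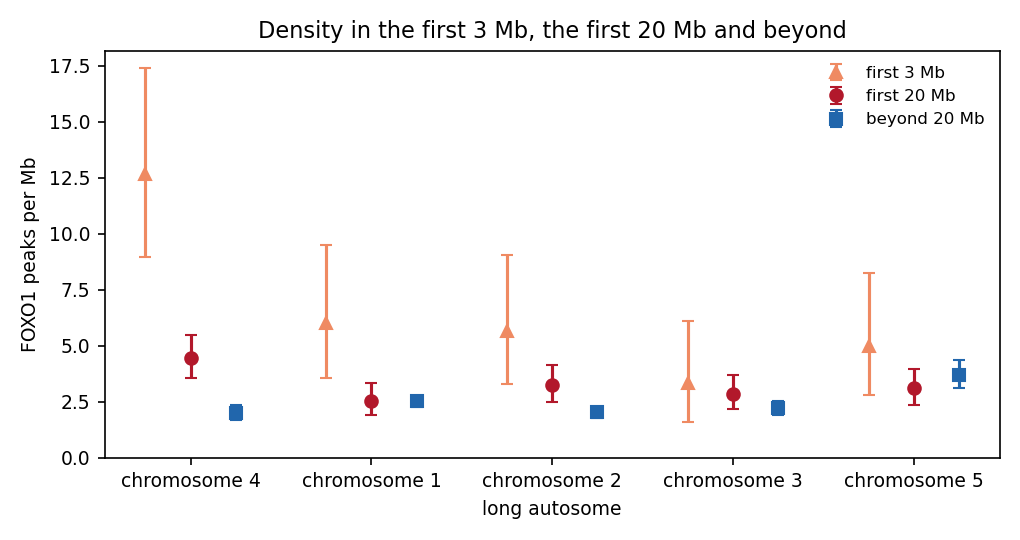
FOXO1 peaks per Mb in the first 3 Mb (triangles), the first 20 Mb (circles) and beyond 20 Mb (squares) of chromosome 4 and of the other long autosomes, with Poisson 95% intervals. Chromosome 4 has the highest first 3 Mb, 12.7 per Mb, and the lowest density beyond 20 Mb, 2.01 per Mb, next to 2.03 on chromosome 2.

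Peak density in this list tended to be lower on longer chromosomes, so the arm was also set beside chromosomes of about its own size. The 6 autosomes with a highest peak end between 15 and 25 Mb were chromosomes 9 to 14, and 4 of them also belong to the microchromosome set. Together they had 4.94 peaks per Mb (4.54 to 5.36), and the arm had 0.901 times that density (0.628 to 1.29; quasi-Poisson fit, n = 138 windows, adjusted p = 0.564). One by one, chromosomes 9 to 14 had 4.15, 4.90, 4.12, 4.81, 5.41 and 6.88 peaks per Mb. The arm, at 4.45, stood above chromosomes 9 and 11 and below the other 4. Its Poisson interval of 3.57 to 5.48 held all of them but chromosome 14. That interval leaves the clustering of the arm's peaks out and is too narrow. An interval of 0.628 to 1.29 leaves room for a moderate difference in either direction. Without the first 3 Mb of each chromosome the ratio was 0.642 (0.415 to 0.993), and the adjusted p of 0.0673 (quasi-Poisson fit, n = 117 windows) missed the threshold. In that setting chromosomes 9 to 14 kept their far ends, while the arm held no chromosome end, so the stretches were not alike.

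A line of log10 density on log10 length through the other 27 autosomes placed a stretch of 20 Mb at 5.17 peaks per Mb. The arm lay at 0.861 times that value, 0.767 residual SD below the line, and 8 of the 27 autosomes lay further below. The rest of chromosome 4, 70.2 Mb long, was placed at 3.03 per Mb. Its 2.01 per Mb was 0.663 times that, 2.1 residual SD below the line, and none of the 27 autosomes lay as far below. Taken whole, chromosome 4 had 2.55 peaks per Mb, 0.936 times the line. The 27 autosomes entered the line whole, with their starts, while the rest of chromosome 4 is without its first 20 Mb. The line is a description with no test, and length enters both of its axes.

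**Figure D3:**
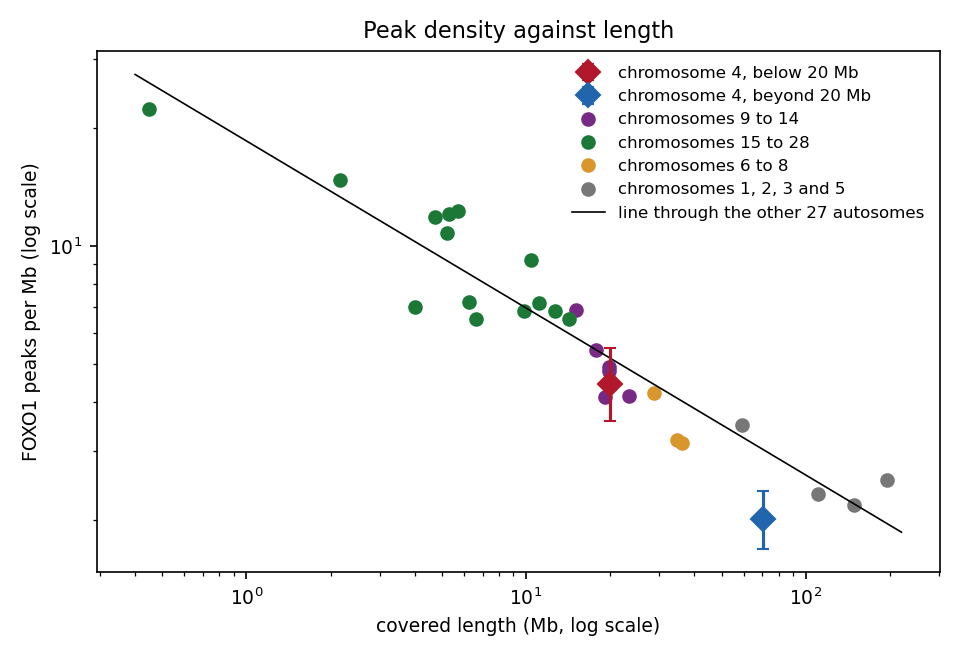
FOXO1 peaks per Mb against covered length, both on log scales, with chromosome 4 drawn as 2 pieces (diamonds, Poisson 95% intervals) and the other autosomes as circles. The arm (4.45 per Mb) lies among chromosomes 9 to 14, and the rest of chromosome 4 (2.01 per Mb) lies below the line.

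The long part of chromosome 4 was sparser than the microchromosomes. Its 141 peaks gave 0.286 times the density of chromosomes 11 to 28 (0.213 to 0.383; quasi-Poisson fit, n = 252 windows, adjusted p = 8.43e-19). Against chromosomes 1, 2, 3 and 5 the ratio was 0.804 (0.634 to 1.02), which missed the threshold (quasi-Poisson fit, n = 586 windows, adjusted p = 0.0744). An exact binomial test of peak numbers, which takes peaks as independent, passed it (adjusted p = 0.0155). Both used whole reference chromosomes, starts included. Beyond 20 Mb alone, chromosomes 1, 2, 3 and 5 had 2.52, 2.03, 2.21 and 3.71 peaks per Mb, against 2.01 on chromosome 4. Within the long part of chromosome 4 the 10 Mb from 20 to 30 Mb held 13 peaks, 1.30 per Mb (0.692 to 2.22). The stretch from 80 to 90 Mb held 34, 3.4 per Mb (2.35 to 4.75). The 5 steps of 10 Mb between them had 1.40 to 2.30 peaks per Mb. Of the 70 full windows beyond the boundary, 9 were empty and 7 held 5 or more peaks, against 1 empty window and 7 with 5 or more among the 20 windows of the arm. Over all full windows, counts varied less beyond the boundary, with a variance of 1.34 times the mean, than on the arm, at 3.68 times. The arm's value includes its first 3 windows, of 16, 14 and 8 peaks. Its other windows held 0 to 5 peaks, against 0 to 7 beyond, so the larger variance does not describe the whole arm.

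Next to the boundary itself both sides were thin. The last peaks below it started at 18044356, 19213065 and 19820942 and held 8, 8 and 7 ChIP tags. The first beyond it started at 20263841, 20864882 and 21217937 and held 6, 7 and 7. The 2 windows before the boundary held 1 and 2 peaks and the 2 after it held 2 and 1. These counts are too small to show whether density steps there.

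Spacing followed density. Adjacent peak starts on the arm were a median of 115 kb apart (interquartile range 41.7 to 250 kb, 88 distances), against 284 kb (117 to 697 kb, 140 distances) beyond. Chromosomes 9 to 14 had a median of 96.9 kb, chromosomes 11 to 28 one of 68.8 kb, and chromosomes 1, 2, 3 and 5 one of 220 kb. Within the first 3 Mb of chromosome 4 the median was 53.8 kb. From 3 to 20 Mb it was 227 kb, close to that of the long autosomes.

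Close neighbours were few on both sides. On the arm 9 of 88 distances were at most 10 kb (10.2%, exact 95% interval 4.78 to 18.5), against 7 of 140 (5.0%, 2.03 to 10.03) beyond. In the whole list 7.51% of distances were that short, so both shares lay near the background. All 9 of the arm lay among the 37 distances of the first 3 Mb, a stretch picked after its many peaks had been seen, where short distances come with the choice. None of the 50 distances from 3 to 20 Mb was that short. The closest pair of the arm started 1.23 kb apart, at 1600246 and 1601475, and the closest beyond 0.503 kb apart, at 83537589 and 83538092.

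The only group of 3 or more linked peaks on chromosome 4 was a run of 4 within 18.2 kb, at 352594 to 370772. Its members held 8, 7, 13 and 11 ChIP tags and 10, 13, 21 and 11 input tags in order of position. Pooled, they had 39 ChIP tags over 55 from input, which is 13.4-fold (8.65 to 20.5). The remaining 13 groups were pairs, 6 on the arm and 7 beyond. The longest stretch between neighbours was 1.47 Mb on the arm, between the peaks at 6642955 and 8115226. Beyond the boundary it was 2.98 Mb, between those at 39842729 and 42826977.

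**Figure D4:**
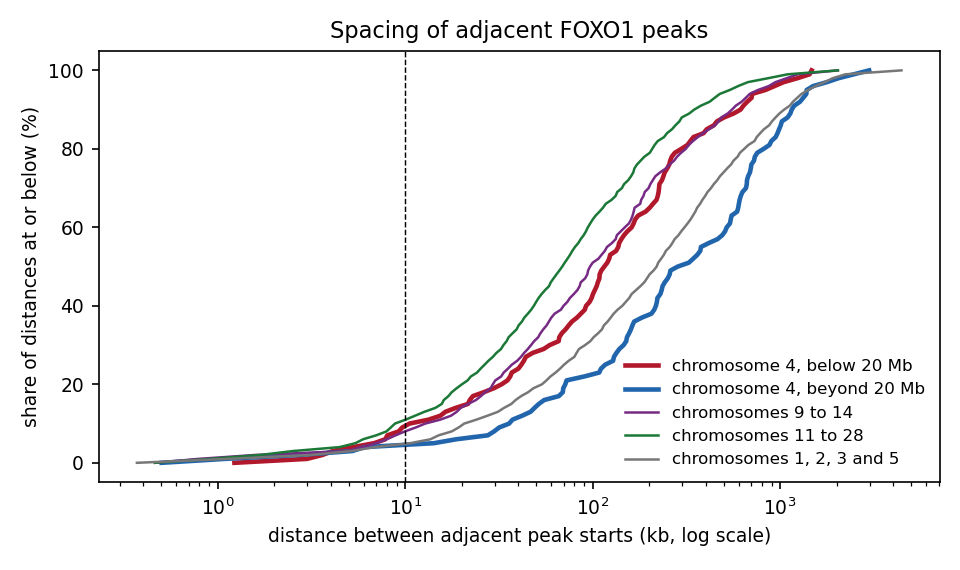
Cumulative share of distances between adjacent peak starts (kb, log scale) for both sides of chromosome 4, chromosomes 9 to 14, 11 to 28, and 1, 2, 3 and 5, with a dashed line at 10 kb. The arm (median 115 kb) runs near chromosomes 9 to 14 (96.9 kb), and the rest of chromosome 4 (284 kb) has the widest spacing drawn.

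Peak height was much the same on both sides. The caller's limit of 7 tags sets a floor for the score, so low medians near it come partly with the calling. Total Tags, the ChIP tags in a peak, had a median of 8 on the arm (interquartile range 7 to 8, range 6 to 17) and 7 beyond (7 to 8, range 6 to 15). The exact 95% intervals of these medians were 7 to 8 and 7 to 7. A count of 7 has a Poisson 95% interval of 2.81 to 14.4 and a count of 8 one of 3.45 to 15.8, so 1 tag is within counting error for a single peak. That error does not measure the spread of a median. A count of 8 was listed for 30.3% of the arm's peaks and 14.9% of those beyond, and a count of 7 for 36.0% of the arm's peaks and 48.2% of those beyond. Mean Total Tags were 7.88 on the arm and 7.81 beyond.

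High peaks were few on both sides. At 10 or more Total Tags there were 8 of 89 peaks on the arm (8.99%, exact 95% interval 3.96 to 16.9) and 19 of 141 beyond (13.5%, 8.31 to 20.2), where the whole list had 14.8%. The score, limited to 1 tag per position, is a separate count and can exceed Total Tags, as at 81411514 (13 tags, score 15). A score of 12 or more was reached by 4 peaks of the arm (4.49%, 1.24 to 11.1) and 8 beyond (5.67%, 2.48 to 10.9), against 6.90% in the list. The lowest score of 7 was listed for 43.8% (33.3 to 54.7) of the arm's peaks and 49.6% (41.1 to 58.2) of those beyond, against 44.0%. No peak of chromosome 4 reached 20 tags. That allows a share of up to 1.30%, and the list's share was 0.995%, so the absence is within counting error. The highest count of the list was on chromosome Z. Chromosomes 1, 2, 3 and 5 reached 714 tags and chromosomes 11 to 28 reached 329.

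The input tags at the peaks had similar medians. The authors' limits on fold and p-value over input cap the input tags of a kept peak on either side. Input tags, recovered as whole numbers from Total Tags and fold, had a median of 11 on the arm (interquartile range 8 to 14, range 2 to 25) and 10 beyond (7 to 15, range 1 to 28). In the authors' scaled control tags these medians were 0.6 and 0.5. The median was 11 on chromosomes 9 to 14, 11 to 28 and 1, 2, 3 and 5. Peaks with 5 or fewer input tags were 8 of 89 on the arm (8.99%, 3.96 to 16.9) and 24 of 141 beyond (17.0%, 11.2 to 24.3). The share in the whole list was 12.5%, inside both intervals. No chromosome 4 peak was without input tags, and none had more than 28, while the list reached 3010, on chromosome Z. The shares of the whole list without input tags or with more than 28 are not given here. Neither absence can therefore be read as particular to chromosome 4.

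Pooled enrichment over input did not separate the sides beyond counting error, while the medians of the folds lay further apart. The same limits over input bound the folds from below on both sides. Pooled over peaks, the arm had 701 ChIP tags over 1023 from input, which is 12.9-fold (95% interval 11.7 to 14.3). Beyond, it was 1101 over 1538, or 13.5-fold (12.5 to 14.6). The median of the authors' folds was 12.58 on the arm (interquartile range 9.44 to 18.87) and 15.10 beyond (10.07 to 21.23). The exact 95% intervals of these medians, 11.62 to 14.52 and 13.21 to 16.52, overlapped, but each median lay outside the other interval. The difference between the medians was not tested. A lower 95% limit of the fold above 4 was held by 51 peaks of the arm (57.3%, 46.4 to 67.7) and 92 beyond (65.2%, 56.8 to 73.1), against 60.3% of all peaks.

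The fold over the surrounding 10 kb was lower on the arm. Its median was 12.45 on the arm (exact 95% interval 11.36 to 13.16), against 14.85 beyond (14.01 to 16.09). These intervals did not overlap, but they take peaks as independent, and the difference was not tested. Local ChIP tags, taken as Total Tags divided by that fold, had a median of 0.601 per peak width on the arm (0.539 to 0.663), against 0.497 (0.456 to 0.560) beyond, with intervals that overlapped. Chromosomes 11 to 28 had 0.642 and chromosomes 1, 2, 3 and 5 had 0.518. The part of the local tags in the density difference was not tested. Median local tags were 0.704 in the first 3 Mb and 0.518 from 3 to 20 Mb. The median fold over the local 10 kb was 13.51 from 3 to 20 Mb, between the 12.45 of the whole arm and the 14.85 beyond. Close neighbours, which on the arm all lay in the first 3 Mb, can add to each other's local tags and so lower this fold. Whether close neighbours did so here was not tested.

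A calculation with thinned scores gave the expected number of peaks that would stay at or above the caller's lowest score. With the scores of the arm thinned by the ratio of the median local tags, an expected 46.6 of its 89 peaks still scored 7 or more. The density ratio to the rest of chromosome 4 was then 1.16 (0.764 to 1.76; quasi-Poisson fit, n = 91 windows, adjusted p = 0.687 over 3 thinned comparisons), and that to the long autosomes 1.08 (0.740 to 1.58; n = 535 windows, adjusted p = 0.687). Only the denser side was thinned, and 43.8% of the arm's peaks had the lowest score, so the loss of peaks and of the calls follows from the calculation and says nothing about the local tags.

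**Figure D5:**
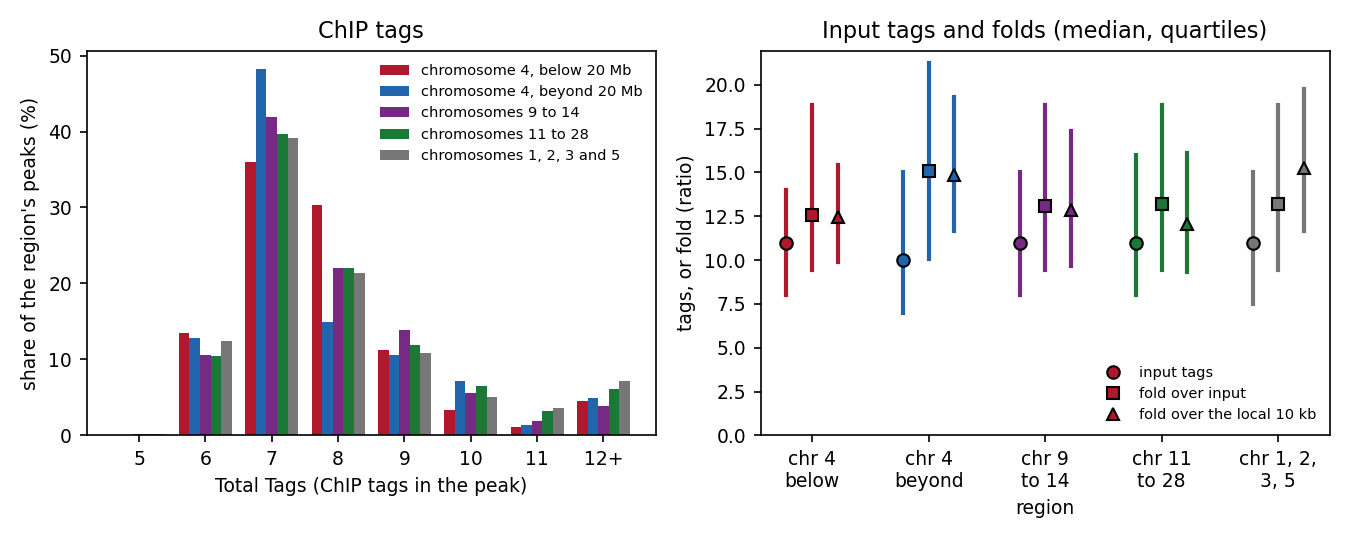
Left, share of peaks (%) with each number of Total Tags on the 2 sides of chromosome 4 and in 3 other chromosome sets. Right, medians (markers) and quartiles (bars) of input tags and of the folds over input and over the surrounding 10 kb. The arm has a median of 11 input tags and the rest of chromosome 4 one of 10, and the fold over the local 10 kb is 12.45 and 14.85.

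The clearest single peaks of the arm were chosen by the authors' p-value over input, 10 on each side. The first was the peak at 13835612 to 13835814, where 16 ChIP tags lay over 3 from input, 100.66-fold (exact 95% interval 28.8 to 539). It was number 20 of the whole list and the one chromosome 4 peak among the first 25. Next came the peak at 802922 to 803124, which had the most tags on the chromosome, 17 against 13 of input, at 24.68-fold (11.3 to 55.3). After it came 3269543 to 3269745, where 9 ChIP tags over 2 from input gave 84.94-fold (17.6 to 808). That fold rested on the 2 input tags, as the width of its interval shows.

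The other 7 held 8 to 13 ChIP tags and 4 to 21 input tags. Of these, 16454893 (12 ChIP and 13 input tags, 17.42-fold) and 16513638 (10 and 8, 23.59-fold) lay in the same 1 Mb window. Another listed peak, at 16470063, lay between them. Members of the run of 4 described above, at 366819 and 370570, were also among the 7, with 13 and 11 ChIP tags at 11.68-fold and 18.87-fold. The last 3 started at 1270660, 10744609 and 5403845, with 9, 8 and 10 ChIP tags. Of the 10 peaks, 4 lay in the first 3 Mb, which held 42.7% of the arm's peaks.

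Beyond the boundary the first was at 58414223 to 58414425, where 13 ChIP tags lay over 8 from input, 30.67-fold (11.8 to 85.4). The peaks at 38475583 and 46429998 had 15 and 14 ChIP tags against 14 and 13 input tags, at 20.22-fold (9.10 to 45.2) and 20.33-fold (8.86 to 47.0). The highest fold of chromosome 4, 132.12, belonged to the peak at 26353053 to 26353255 and rested on 7 ChIP tags and 1 input tag (17.0 to 5955). The peak at 81411514 held 13 ChIP and 15 input tags at 16.36-fold (7.16 to 36.9). The other 5, at 83469103, 60553017, 88121176, 89290512 and 51551018, held 7 to 11 ChIP tags and 2 to 8 input tags. Of the 10 peaks, 4 started beyond 80 Mb, where 36 of the 141 peaks (25.5%) started.

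Ranked by the same p-value, chromosome 4 held 5 of the first 100 peaks of the list, 31 of the first 500 and 66 of the first 1000. These are 5.0%, 6.20% and 6.60%, where it held 6.93% of all peaks. On the arm, which held 89 of the 3317 peaks, lay 3, 13 and 22 of them. Beyond it, where 141 of the 3317 peaks lay, there were 2, 18 and 44. The counts of the sides were not tested against these shares.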

How the data were processed

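One peak list, of the ChIP library against the input library, was used. Per the submitters' processing notes, Bowtie2 2.1.0 and HOMER 4.7 were used. Per the file headers, the authors called 203 bp peaks with HOMER findPeaks at a false discovery rate of 0.001 (7 tags) with at least 4-fold and p of 0.0001 over input and over the local 10 kb. The genome build is not given in the sources used here. Total Tags are counts, the score limits tags to 1 per position, normalized and control tags are a signal, the focus ratio is a fraction, folds are ratios and p-values are unadjusted Poisson values, all deposited by the authors.

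Input tags were recovered as Total Tags over fold in steps of 0.0530 scaled tags (within 0.02 of a whole number for all chromosome 4 peaks). Length was the highest peak end. Peak starts in 1 Mb windows were fitted by a quasi-Poisson model with window length as offset (F test, Benjamini-Hochberg over 7 comparisons, threshold 0.05), checked on simulated windows. Neighbouring windows are not independent, so p-values may be too small. Each fit shared a single dispersion over its windows, although counts varied more on the arm than beyond the boundary. Intervals for the arm may therefore be too narrow. The simulated windows were drawn independently and differed less in variance between sides, so they did not cover this. Fold, share and median intervals are exact 95% binomial, and density intervals are Poisson. Share, median and density intervals take peaks as independent. Peaks to name were the 10 with the smallest p-value on each side, groups of 3 or more, the 3 nearest the boundary and the longest gaps; other peaks and the 3 Mb stretches were chosen after their values were seen. Members, lists and tests were chosen with earlier results of these data known. Thresholds, boundary, windows, model, chromosome sets and chromosome starts were varied. Software was statsmodels 0.14.6, scipy 1.17.1, numpy 2.4.6, matplotlib 3.10.9 and pandas 2.3.3 under Python 3.11.15.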

Additional observations from a re-analysis of the deposited data

How the results depend on the processing

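Of 121 alternatives over the 7 density comparisons, 100 kept direction and side of the threshold; the starts of 3 and 5 Mb were added after the data were seen. Adjusted p-values are from quasi-Poisson fits unless named. Arm against the rest of chromosome 4: 1.76 at a score of at least 12 (12 peaks, too few to show a difference). It was 1.49 and 1.46 without the first 3 and 5 Mb, and 1.16 with thinned scores. Leaving the thinned scores out, its range over the alternatives was 1.46 to 2.47. Arm against chromosomes 1, 2, 3 and 5: 1.34, 1.23 and 1.2 without the first 2, 3 and 5 Mb, 1.08 with thinned scores, and, as the one reversal, 0.978 for scores from 12 upward (n = 535 windows, adjusted p = 0.98, 4 peaks on the arm). Arm against chromosomes 11 to 28: 0.623 at a score of at least 8, 0.421 at 12, 0.621 with a lower fold limit above 4, 0.633 in 2 Mb windows (n = 105, adjusted p = 0.0529), 0.679 with the boundary at 18 Mb and 0.721 against chromosomes 11 to 20 only. Ratio of the first 20 Mb to the rest, chromosome 4 against the other long autosomes: 2.21 at a score of at least 12, 1.73 with a lower fold limit above 4 (n = 606 windows, adjusted p = 0.0506), and 1.58, 1.50 and 1.46 without the first 2, 3 and 5 Mb. The rest of chromosome 4 against the long autosomes passed the threshold only in the exact binomial test (0.804). Smaller peak numbers come with the stricter lists and the thinned scores by construction; for the other lost calls the cause was not tested. Of 40 alternatives for medians, 37 stayed within the main interval; the median distance on the arm was 211 kb without the first 2 Mb, and at a score of at least 8 that beyond was 658 kb and its median of Total Tags 8. No paired analysis was possible because there was a single library on either side. Most single peaks, at 7 or 8 tags, could not be ranked against each other.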
